A study of Mus musculus with 2 samples.

Results

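The genes described here are 10 mouse apolipoprotein genes, taken from a list of names: Apoa1, Apoa2, Apoa4, Apob, Apoc1, Apoc3, Apoh and Apom, which the liver is known to make, and Apoe and Apod, which cells of the brain are known to make. They are 10 of 37069 distinct gene names on the arrays, and 13 probes carried their RefSeq accessions. RNA of the prefrontal cortex (PFC) of male C57Bl/6 N sea mice was measured as 1 pool of a control (C) group and 1 pool of a group exposed to chronic mild stress (CMS), each on 1 one-color Agilent array, and both arrays lay on 1 slide. Chronic mild stress is a model of depression in which mice meet changing mild stressors, here over 4 weeks. The mice were 9 to 10 weeks old at the start, CMS mice were housed singly and C mice in groups, and tissue was taken the day after the last stressor. The series' design text has 7 mice in each pool, whereas the methods assign 10 mice of each group to microarray and qRT-PCR work together. The pools had no replicate arrays, so the spread between mice was not measured, and differences between the pools are given as values without a test.

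Apolipoproteins are the protein part of the lipid particles that carry cholesterol and triglyceride in body fluids. Apob is the structural protein of chylomicrons and very low density lipoproteins, Apoa1 is the main protein of high density lipoproteins (HDL), and the small Apoa and Apoc proteins move between particles and steer lipases and lipid transfer. Plasma lipoproteins are made by liver and intestine, and the liver also makes Apoe. In the brain, astrocytes secrete Apoe on HDL-like particles, and Apod is made by glia and cells of the vessel wall. Hnf4a, a nuclear receptor of hepatocytes, is known to act on promoters of several liver apolipoprotein genes through direct repeats with 1 base between the half-sites.

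The upstream sequences of 5 members are shown because the study looked at Hnf4a as a factor acting on genes of lipid metabolism, and because these 5 genes gave high ratios (Apoa1, Apoa2, Apob), no measurable signal (Apoa4) or a ratio near 1 (Apoe) as described further on. They are the 250 bases before the first start site listed in the RefSeq promoter table of GRCm38.p6, 5′ to 3′ along the gene. Capitals mark the letters GNNCANNGNNCA, a loose form of the direct repeat, on either strand.
Apoa1, chr9:46228380-46228629, + strand: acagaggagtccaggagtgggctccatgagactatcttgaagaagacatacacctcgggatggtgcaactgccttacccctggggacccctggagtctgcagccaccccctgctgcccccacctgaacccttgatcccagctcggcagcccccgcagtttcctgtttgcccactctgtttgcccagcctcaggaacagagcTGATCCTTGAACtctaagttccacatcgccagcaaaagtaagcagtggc
Apoa2, chr1:171224804-171225053, + strand: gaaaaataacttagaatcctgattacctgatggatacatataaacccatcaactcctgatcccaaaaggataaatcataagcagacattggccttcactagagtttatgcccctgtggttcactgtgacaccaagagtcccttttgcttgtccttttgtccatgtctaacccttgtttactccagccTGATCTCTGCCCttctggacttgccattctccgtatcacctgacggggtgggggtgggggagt
Apob, chr12:7977427-7977676, + strand: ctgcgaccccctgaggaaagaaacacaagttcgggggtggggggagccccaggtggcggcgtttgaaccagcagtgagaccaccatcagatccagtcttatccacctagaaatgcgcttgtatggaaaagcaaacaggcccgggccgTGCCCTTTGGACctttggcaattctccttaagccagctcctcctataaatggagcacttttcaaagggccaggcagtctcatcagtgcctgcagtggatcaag
Apoa4, chr9:46240594-46240843, + strand: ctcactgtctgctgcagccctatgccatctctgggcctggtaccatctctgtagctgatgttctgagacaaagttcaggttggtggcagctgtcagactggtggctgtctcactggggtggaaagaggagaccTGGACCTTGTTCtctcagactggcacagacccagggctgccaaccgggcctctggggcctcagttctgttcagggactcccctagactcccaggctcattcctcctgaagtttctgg
Apoe, chr7:19699189-19699438, - strand: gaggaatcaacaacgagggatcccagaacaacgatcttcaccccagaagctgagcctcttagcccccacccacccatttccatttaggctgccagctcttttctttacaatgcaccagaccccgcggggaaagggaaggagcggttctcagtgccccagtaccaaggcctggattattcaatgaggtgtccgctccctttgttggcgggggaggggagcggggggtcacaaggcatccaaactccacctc
The table had an entry for 8 of the 10 members, and none for Apoc1 and Apoc3. The repeat letters were found in 4 of these 8 windows, those of Apoa1, Apoa2, Apoa4 and Apob, and in 14.2% of the 27025 windows of all genes in the table. The match began at position -49 in Apoa1, -63 in Apoa2, -103 in Apob and -117 in Apoa4, counted back from the start site, each time on the strand opposite to the gene. The windows of Apoh and Apom, which are not shown though their log2 ratios were also high (2.88 and 2.29), did not hold these letters. Those of Apoe and Apod did not either. Searched on both strands in the same windows, TATAAA was found in 2 members (Apoa2 and Apob; 13.0% of all windows), TTGCNNAA, a form of the C/EBP motif, in 1 (Apob; 9.55%) and GGGCGG in none (32.9%). No base of these 8 windows belonged to more than 1 motif. Apoa2 and Apoe had further start sites listed, which are not counted here. Before another site of Apoa2, TTGCNNAA occurred and the repeat letters did not. Before another site of Apoe, TATAAA occurred. A match is a run of letters and not a measured binding site.

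Of the 8 liver-type apolipoproteins, 7 were higher by more than 2-fold in the CMS pool, and 1, Apoa4, was not well above background in either pool. None was lower. Over all 27117 gene names with a ratio, 1.99% were more than 2-fold higher and 0.59% were below 0.5 times. Among the 25433 names well above background on both arrays, as these 7 were, the shares were 1.16% and 0.173%. Counted by probe, all 9 liver-type probes with a ratio were higher, against 1.82% higher and 0.581% lower among 37374 probes. The 7 genes had a median log2 ratio of CMS over C of 2.88, with a range from 1.20 to 3.40, against a median of -0.03 over all gene names. Apoe and Apod, which brain cells make, had log2 ratios of 0.05 and -0.02. The liver is known to make Apoe as well. At its control signal of 105675, a given added signal changes the ratio far less than at a dim probe. The contrast of Apoe with the 7 genes therefore does not separate genes by the tissue that makes them. For Apod, too, a split by tissue was not tested. All 9 members with a ratio were bright enough in both pools for the ratio to be measured rather than bounded. In pooled tissue, more cells of a type and more RNA per cell cannot be told apart. Nor do ratios from 1 array per group tell which cells or which tissue the RNA came from.

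**Figure D1:**
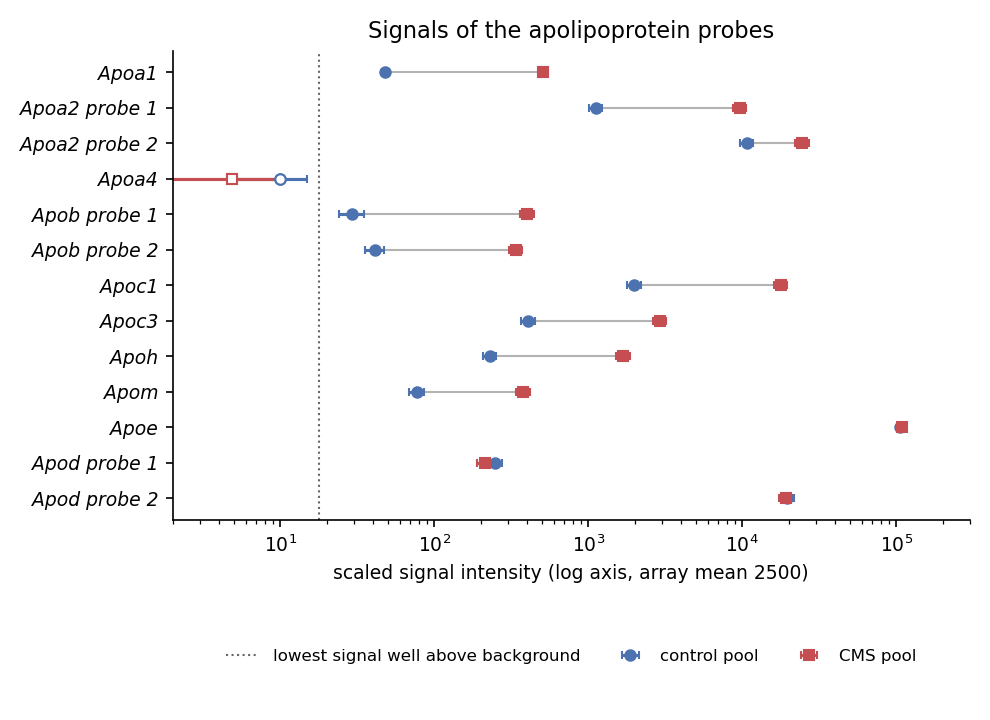
Scaled signal intensity (log axis, each array scaled to a mean of 2500) of the 13 probes of the 10 genes in the control pool (circles) and the CMS pool (squares), with the error that the scanner software gave the signal. All 9 liver-type probes well above background lie to the right in the CMS pool. Open symbols mark Apoa4, which was not well above background (the lower end of its CMS error lies off the axis), and the pools overlap for Apoe and Apod.

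The values that follow are scaled signal intensities, with each array scaled to a mean of 2500, and ± gives the error that the scanner software assigned to the spot or spots, which covers the measurement and not mice. Spots of 1 probe gave log2 ratios with an SD of 0.13 (314 probes with 3 or more spots). Levels of single genes are compared between pools for 1 probe and not between probes.

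Apoa1 (NM_009692), the main HDL protein, had a signal of 48.1 ± 2.08 with control RNA and 507 ± 16.1 with CMS RNA, a log2 ratio of 3.40 and a fold change of 10.5. Its probe was printed 10 times on each array, so the value could be read spot by spot. The spots ran from 32.2 through a median of 48.1 to 63.3 in the C pool, and from 471 through 506 to 548 in the CMS pool. The highest C spot was thus far below the lowest CMS spot, and the 10 ratios of spots at the same place had a mean of 3.41 ± 0.25 (SD over 10 spots). These spots measure 1 pool again and are not replicates of the group. Under normexp background correction with quantile normalization the log2 ratio was 2.36.

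Apoa2 (NM_013474), the second most abundant protein of HDL, was read by 2 probes that gave unequal ratios. The brighter probe had 10714 ± 1071 with control RNA and 24606 ± 2461 with CMS RNA, a log2 ratio of 1.20. The other had 1118 ± 112 and 9612 ± 961, a log2 ratio of 3.10. Both exceeded 2-fold, but the ratios differed by 1.90 on the log2 scale, beyond the SD between spots and the scanner error of 0.20 on each. Because the gene value was taken from the brighter probe, Apoa2 has the smallest ratio of the 7, and with the mean of both probes it was 2.15.

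Apoa4 (NM_007468), which the mouse intestine and liver make, had signals of 9.91 ± 5.04 with control RNA and 4.87 ± 4.90 with CMS RNA. Both were below the lowest signal that counted as well above background, 17.8 on the control array and 17.6 on the CMS array. No ratio is given for it, and a change of this gene was not detectable at this signal.

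Apob (NM_009693) was also read by 2 probes. One had 41.4 ± 6.06 with control RNA and 339 ± 34.2 with CMS RNA, a log2 ratio of 3.04. The other had 29.4 ± 5.38 and 402 ± 40.4, a log2 ratio of 3.77, the highest of all member probes. Both probes were dim in the C pool, near the lowest signals well above background, and higher in the CMS pool. With normexp and quantile normalization the gene had a log2 ratio of 1.95.

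The small apolipoproteins of the C class were each read by 1 probe. Apoc1 (NM_007469), known to slow the uptake of lipoproteins, had 1986 ± 199 with control RNA and 17801 ± 1780 with CMS RNA, a log2 ratio of 3.16. Apoc3 (NM_023114), an inhibitor of lipoprotein lipase, had 408 ± 41.0 and 2911 ± 291, a log2 ratio of 2.84. Both signals were clear in the C pool and higher still in the CMS pool, by 8.96-fold and 7.14-fold.

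Apoh and Apom belong to other protein families than the Apoa and Apoc proteins. Apoh (NM_013475), the beta-2-glycoprotein that binds anionic phospholipid and takes part in coagulation, had 229 ± 23.2 with control RNA and 1686 ± 169 with CMS RNA, a log2 ratio of 2.88. Apom (NM_018816), a lipocalin that carries sphingosine-1-phosphate on HDL, had 77.0 ± 8.92 and 378 ± 38.0, a log2 ratio of 2.29. Apom was 4.91-fold higher in the CMS pool and Apoh 7.36-fold, and under normexp the log2 ratio of Apom was 1.61.

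**Figure D2:**
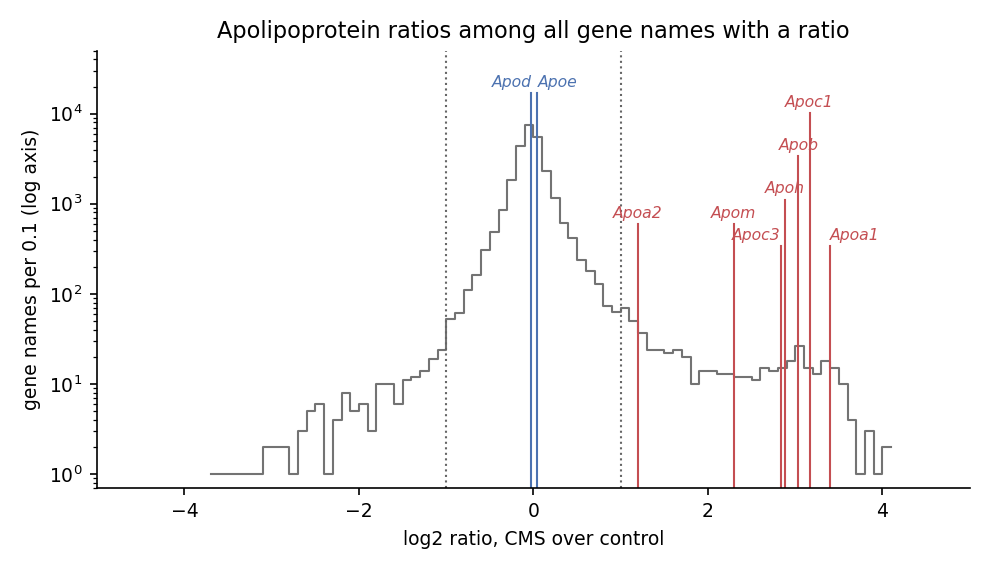
Number of gene names per 0.1 of log2 ratio of CMS over control (log axis), over all 27117 names with a ratio, with the 9 members that had one marked by vertical lines (liver-type red, Apoe and Apod blue) whose height has no meaning. Dotted lines mark 2-fold either way. The liver-type genes lie between 1.20 and 3.40, and Apoe and Apod lie near the peak of the distribution.

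Apoe (NM_009696), the main apolipoprotein of brain lipid particles, had 105675 ± 3343 with control RNA and 109053 ± 3637 with CMS RNA, a log2 ratio of 0.05. Its probe was printed 10 times per array, and 1 spot of the CMS array was left out as an outlier. The spots ran from 99848 through a median of 106072 to 109680 in the C pool. In the CMS pool the other spots ran from 104003 through 109678 to 116060. The spots of the 2 pools overlapped, and the difference of the means, 3378, lay within the SD of the spots of the CMS array, 3837, and above that of the C array, 3074. Paired by place, all 9 spots were slightly higher in the CMS pool, with log2 ratios from 0.02 to 0.08. These spots share 1 pool and 1 scale factor per array, so their common sign depends on the scaling. Without scaling the log2 ratio of Apoe was -0.13.

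**Figure D3:**
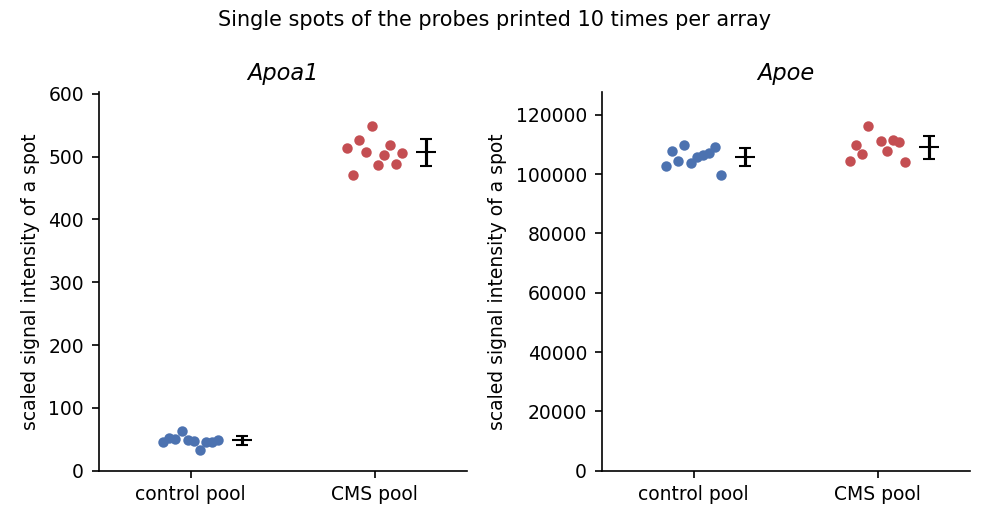
Scaled signal intensity of each spot of the Apoa1 probe (left) and the Apoe probe (right) in the control pool (blue) and the CMS pool (red), with the mean and SD over spots in black. For Apoa1 the pools stand apart, and for Apoe they overlap. The points are spots of 1 array and not animals.

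Apod (NM_007470), a lipocalin of glia, was read by 2 probes. The brighter had 19618 ± 1962 with control RNA and 19306 ± 1931 with CMS RNA, a log2 ratio of -0.02. The dimmer had 249 ± 25.2 and 212 ± 21.6, a log2 ratio of -0.23, about the size of its scanner error of 0.21. For both probes the pools differed by less than their errors summed. Without scaling of the arrays, Apoe had a log2 ratio of -0.13 and Apod of -0.20, because that setting moved the median of all gene names from -0.03 to -0.20. Relative to the median of all gene names, Apoe was at 0.08 and Apod at 0.01 under both settings.

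Some members are neighbours in the genome. In the order of protein-coding genes in the RefSeq table, Apoa1, Apoc3, Apoa4 and Apoa5 follow each other on chromosome 9, and Apoc2, Apoc4, Apoc1 and Apoe on chromosome 7. On chromosome 9, Apoa1 and Apoc3 were high in the CMS pool, at log2 ratios of 3.40 and 2.84. The next gene, Apoa4, was not well above background. Apoa5 (NM_080434), which activates the breakdown of triglyceride and is made by the liver, had 152 with control RNA and 210 with CMS RNA, a log2 ratio of 0.47. The 5 other neighbours on that chromosome, Sidt2, Pafah1b2, Sik3, Zpr1 and Bud13, had log2 ratios from -0.32 to -0.01.

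On chromosome 7, Apoc4 (NM_007385) had 66.2 with control RNA and 622 with CMS RNA, a log2 ratio of 3.23, and Apoc1 beside it had 3.16. Apoe, the next gene, was at 0.05. Tomm40, Nectin2 and Bcam, which follow it, were at -0.02, -0.05 and -0.07, and no probe carried an accession of Apoc2. These are ratios of different probes, and whether neighbouring genes differ was not tested.

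**Figure D4:**
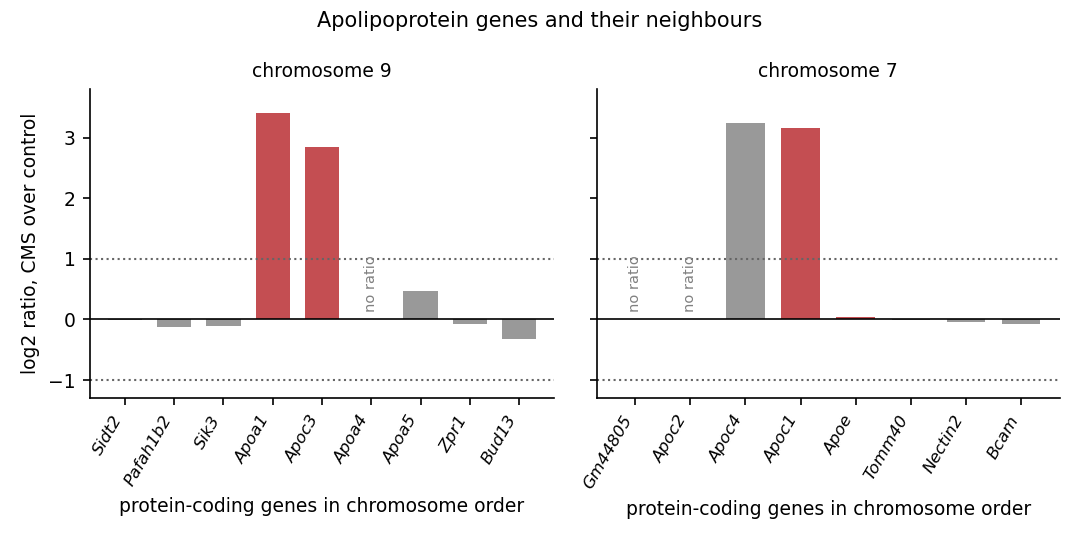
Log2 ratio of CMS over control for the apolipoprotein genes of chromosomes 9 and 7 and their protein-coding neighbours in chromosome order, members in red and other genes in grey. Dotted lines mark 2-fold either way, and "no ratio" marks genes not well above background or without a probe. Bars above 2-fold are those of Apoa1, Apoc3, Apoc4 and Apoc1, and the bar of Apoe is at 0.05.

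Of the 16 other apolipoprotein genes listed, 14 had a probe and 12 a ratio, and 5 were more than 2-fold higher, none lower. They were Apoc4, Apof, Apon, Apol7a and Apol9b, of which Apon and Apol7a are named only after their values were seen. Apof, which regulates lipid transfer between particles, had 55.6 with control RNA and 416 with CMS RNA, a log2 ratio of 2.90. Apon and Apol7a were not well above background with control RNA, and the CMS pool exceeded it by at least 5.67-fold for Apon and at least 6.98-fold for Apol7a. Apol9b, whose probe may also read its near-identical copy Apol9a, lay just past the limit at 1.04, and was at 0.87 without scaling and 0.85 under normexp. Apol9a had 549 with control RNA and 669 with CMS RNA, a log2 ratio of 0.28. Clu, the clusterin or apolipoprotein J that astrocytes make, had 97956 with control RNA and 93054 with CMS RNA, a log2 ratio of -0.07.

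The receptors that take up lipoproteins showed no gene past 2-fold among the 15 of 17 with a ratio, and their median log2 ratio was -0.08. Lrp1, a large receptor for Apoe, was at -0.10, and Lrp8, the neuronal receptor for Apoe and reelin, at -0.19. Lsr, a lipoprotein receptor of liver, was at 0.30.

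Genes of lipoprotein assembly, remodelling and lipid transfer numbered 26, of which 22 had a ratio, 3 were more than 2-fold higher and none was lower, with a median of 0.18. Among the 3 was Pon1, a paraoxonase carried on HDL, whose signal was low in the C pool. It had 28.5 with control RNA and 253 with CMS RNA, a log2 ratio of 3.15. Abcg5, a sterol exporter also among the 3, was not well above background with control RNA and at least 3.74-fold higher. Abcg5 here and Nr1h4 further on are named after their values were seen. Soat2 was at 0.62 and Angptl4 at 0.51. Mttp, which loads lipid on Apob, had 104 with control RNA and 125 with CMS RNA, a log2 ratio of 0.28. Lcat, which esterifies the cholesterol of HDL, was at 0.18 and Abca1, which lipidates Apoa1 and Apoe, at 0.07. Apob, at 3.04, and Mttp, at 0.28, thus had ratios far apart.

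Of 18 transcription factors known to act on apolipoprotein genes, 15 had a ratio, 3 were more than 2-fold higher and none was lower, with a median of 0.14. Hnf4a, low in the C pool, had 45.1 with control RNA and 529 with CMS RNA, a log2 ratio of 3.55. Creb3l3, a factor of liver and intestine that acts on genes of triglyceride metabolism, went from 106 to 320, a log2 ratio of 1.60. Nr1h4, the bile acid receptor, was not well above background with control RNA and at least 3.31-fold higher. Nr1h3, a sterol receptor that acts on Apoe, was at 0.38, and Cebpa at 0.28. Foxa2 and Nr0b2, which hepatocytes also express, were not well above background in either pool. The study had listed Hnf4a, Pon1 and 7 of the members, all but Apoa4, Apoe and Apod, among changed genes of these same arrays. Its gene sets also held Apoc4, Apof, Apon, Apol7a, Apol9b, Abcg5, Nr1h4 and Creb3l3. The ratios of all these genes are thus no independent evidence of a direction. For Apoa1, Apoa2, Apob and Pon1 the study printed log2 ratios higher than those here by more than the SD between spots. Why they differ was not tested.

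**Figure D5:**
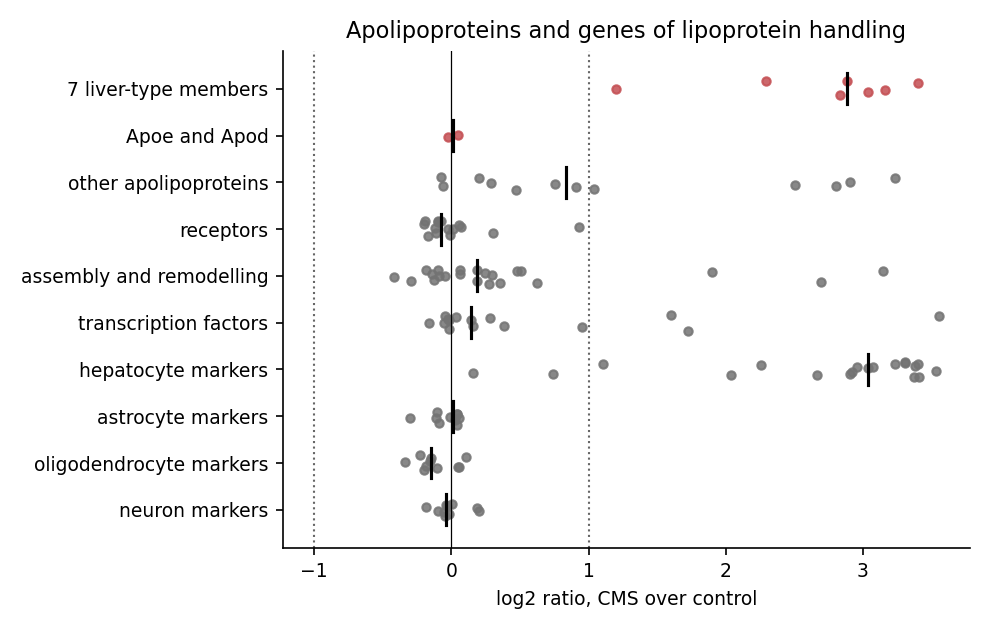
Log2 ratio of CMS over control for each gene with a ratio (points) in the 2 sets of members (red), in 4 lists of genes of lipoprotein handling and in marker lists of hepatocytes, astrocytes, oligodendrocytes and neurons (grey), with the median as a black line and dotted lines at 2-fold. The liver-type members and the hepatocyte markers lie mostly beyond 2-fold, and the receptors and the markers of brain cells lie within it.

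Hepatocyte markers, like the liver-type members, gave higher signals with CMS RNA. Of 20 listed markers, 19 had a ratio, 17 of them above 2-fold and none lower, with a median log2 ratio of 3.03, and their scaled signals summed to 17018 with control RNA and 107888 with CMS RNA. Serpina1a, Alb and Ahsg had the highest CMS signals in that sum. Alb was at 3.53, and Cyp7a1, an enzyme of bile acid synthesis, was not well above background in either pool. The study listed 5 of the 20 among genes linked to Hnf4a, and it started from all genes past 2-fold on these same arrays. The markers past 2-fold are thus no independent evidence of a direction. The part of the hepatocyte markers in the result was not tested. Kupffer cell markers had a median of 0.47 with 1 of 6 higher and none lower. Their signals summed to 378 (control) and 541 (CMS), of which Cd5l gave 215 and 262. Clec4f and Vsig4 of that list were not well above background with control RNA. The CMS pool exceeded it by at least 2.20-fold for Clec4f and at least 1.98-fold for Vsig4. Erythroid markers had a median of 0.45 with none of 4 past 2-fold. Intestinal epithelium markers had a median of -0.08, with 1 of 6 higher and 1 lower, and choroid plexus markers 0.11, with none of 9 past 2-fold.

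The tissue label was checked against markers of brain cells, and all 10 genes were well above background in both pools in each of the lists of neurons, astrocytes, oligodendrocytes, microglia, brain endothelium, and fibroblasts and mural cells. None of these genes passed 2-fold. Snap25 of neurons was at -0.02, Aqp4 of astrocytes at 0.04, Cx3cr1 of microglia at 0.16 and Cldn5 of endothelium at 0.19. The astrocyte list had a median of 0.01 and the oligodendrocyte list of -0.15, beside 0.05 for Apoe and -0.02 for Apod. Gapdh and Actb, which every cell uses, were at 0.04 and -0.02.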

How the data were processed

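RNA of mouse PFC was hybridized to Agilent SurePrint G3 Mouse arrays, 1 for a pool of control mice and 1 for a pool of CMS mice. The authors extracted spot intensities with Agilent Feature Extraction 10.10.1.1, and the deposited intensities were background-subtracted, spatially detrended and linear, without scaling. A second deposited table held the same intensities multiplied by 1 factor per array. Of 59305 non-control spots, 65.2% (control) and 65.9% (CMS) were well above background, and none was saturated.

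Outlier spots (130 and 133) were dropped and the spots of each probe averaged. At least 0.5 of the spots had to be well above background for a probe to count as such. Each array was brought to a mean of 2500 over its probes. The methods name an average of 2500 without its rule, and the deposited table gave the same ratios for Apoe and Apod as a mean taken without the lowest and highest 2% of spots, so this scaling is not that of the study. Where a probe was dim on 1 array, its signal there was raised to the lowest signal well above background if it lay under it, and probes dim on both received no ratio. Accessions were matched to symbols in RefSeq's GRCm38.p6 gene table (30725 of 59305 spots), and the brightest probe stood for a gene. The array design names another build, so that table gave names, chromosomes and gene order, and the printed coordinates are those of the RefSeq promoter windows on GRCm38.p6. A gene was called where its ratio was above 2 or below 0.5. The calling code was tested only on simulated arrays in which bright probes were changed well past 2-fold. Changes of dim probes and changes near the limit were not tried. Precision is limited by the number of arrays. The median signal was 3.64 (control) and 3.76 (CMS) times the lowest signal well above background.

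The members and the lists were chosen with earlier results of these data known. Named are all members, the up to 4 largest ratios of each pathway list well above background on both arrays, genes set for each list and the neighbours of the clusters. Some genes of this rule are not reported here. Other genes named in the text were chosen after their values were seen. Alternatives were scaling to the 75th percentile, the median or a mean without the lowest and highest 2% of spots, no scaling, quantile normalization, normexp with an offset of 50 on median spot intensities and then quantile normalization, use of the deposited table, unbounded dim probes, probes bright on both arrays alone, unfiltered probes, inclusion of outlier spots and the mean of all probes. A log2 ratio was said to move past 0.13, the SD between spots, and a count past 1.5 times. Python 3.11.15, numpy 2.4.6, pandas 2.3.3, R 4.3.3 and limma 3.58.1 were used.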

Additional observations from a re-analysis of the deposited data

How the results depend on the processing

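The count of 7 liver-type members more than 2-fold higher was the same under all 12 alternatives, but many of these could hardly change it. The 7 genes were well above background on both arrays, so the settings for dim probes and filters left their values as they were. Scaling by 1 factor per array only shifts all ratios by 1 constant. Their median log2 ratio, 2.88, was 2.71 with no scaling and 2.36 under normexp with quantile normalization. With no scaling Apoe was at -0.13 and Apod at -0.20. The number of gene names past 2-fold, 699, became 303 under normexp, 1090 when dim probes kept their own signals, 338 when both arrays had to be bright and 2562 without any filter. With no scaling the split of higher against lower was 434 against 256, instead of 539 against 160, and under normexp it was 265 against 38. Of the values of single liver-type members under the alternatives, 70 stayed within 0.13 and 14 moved, none changed sign, and they ran from 1.03 to 3.42. Many of the 70 came from settings that could not move them. By construction, leaving out the scaling shifts all ratios by 1 constant, and changing the filter lets fewer or more probes enter. The mean of all probes, also by construction, averages the 2 probes of Apoa2 and of Apob. An offset of 50 added to both signals shrinks the ratio of a dim probe more than that of a bright one. How much of the moves under normexp came from the offset was not tested. No paired analysis was possible because each group had 1 array, and no replicate could be left out. Signal over background limits Apob and Apoa1, which were dim in the C pool, and Apoa4 in both.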

Other observations

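The spread between probes of 1 gene was set out for all genes with a symbol and at least 2 probes well above background on both arrays, a look chosen after the values of Apoa2 were seen. Over these 4042 genes, the highest and lowest log2 ratio of a gene differed by a median of 0.12, and 5% of the genes had a difference above 0.52. For Apoa2 the difference was 1.90, and 7 of the genes had a wider one. For Apob it was 0.74, with 73 genes wider, and for Apod 0.21, with 1185 wider. Of 54 such genes with any probe more than 2-fold higher in the CMS pool, all probes were so in 22, which include Apoa2 and Apob, and the median difference between probes over the 54 was 1.08. The scanner files used here give no position of a probe in its transcript.

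Mitochondrial relatives in name of the apolipoproteins, Apoo and Apool, which shape the inner membrane of mitochondria, had log2 ratios of -0.06 and 0.20. Among the Apol genes, Apol6 and Apol7c were not well above background in either pool. Apol10b and Apol11b were dim in the C pool and higher with CMS RNA, by at least 1.69-fold and at least 1.88-fold.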
